A study of Danio rerio with 8 samples.

Results

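The genes described here are 37 named genes of pigment cells and of pteridine synthesis in zebrafish (Danio rerio). They were listed as 19 melanophore genes, 8 iridophore genes and 10 xanthophore and pteridine genes, and were looked up by gene name in a table of 31953 genes. Of the 37, 33 were found by that name. The genes gart and pts were found under capital-letter names, and aox5 was found by its identifier (ENSDARG00000071475), which the table names aox3. The small GTPase gene rab38 has no value under this name. Of the 36 genes found, 35 had enough counts to be tested: 17 melanophore, 8 iridophore and 10 xanthophore and pteridine genes. The melanocortin receptor gene mc1r had 0 to 11 counts in a library and was not tested.

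The RNA came from whole zebrafish embryos kept for 72 h under 1 of 3 conditions, which were control (3 libraries), high glucose (3 libraries) and high salt (2 libraries). The question behind the comparisons is how high glucose and high salt affect the developing embryo. Sources used here do not give the strain, the age at the start of exposure, the glucose and salt concentrations or the number of embryos in a library. The labels do not say whether a group's libraries came from separate clutches or dishes. P-values therefore measure only the spread between these libraries, which may be technical. Each library name ends in 1m, 2f or 2m (in salt, 1m or 2m). What these suffixes mean is not stated, and libraries are named below by group and suffix.

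Zebrafish larvae carry 3 kinds of pigment cell that arise from the neural crest. Melanophores make black melanin inside organelles called melanosomes, where tyrosinase starts the synthesis from tyrosine and dopachrome tautomerase and tyrosinase-related proteins carry it on. Iridophores reflect light from stacked crystals of guanine and other purines, and so depend on purine synthesis. Xanthophores are yellow through pteridines and carotenoids. Pteridines are built from GTP by GTP cyclohydrolase, and the first steps of that route also give tetrahydrobiopterin, the cofactor with which phenylalanine, tyrosine and tryptophan are hydroxylated. Tyrosinase and its relatives are also made by the retinal pigment epithelium of the eye. In RNA from whole embryos, fewer cells of a type and less RNA per cell cannot be told apart.

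Library totals ran from 14.65 M counts (salt 1m) to 17.32 M (glucose 1m), so that 3 counts were worth 0.171 to 0.226 CPM, the counts divided by each library's scaled total. Control 1m and salt 2m stood apart from the rest, with a correlation of at most 0.943 and 0.941 with any other library, where the other 6 reached 0.955 to 0.976. Libraries of the same suffix deviated from their group means together (r = 0.140 to 0.471, against -0.444 to 0.186 between different suffixes). The 2f pair (0.140) lay inside the range of different suffixes. Deviations within a group sum to 0, so these correlations are not independent. The pairing was thus taken from these same data. Results of the 35 tested genes that change when the suffix is fitted as a block are given with that value. For the wider lists and the markers of other cells, the block and the other alternatives were not examined. Control 1m had the lowest level of 21 of the 35 tested genes, among them 13 of the 17 melanophore genes, whereas over all tested genes it was lowest for 23.3%. Salt 2m had the highest level of 10 of the 35 and the lowest of 6, against 24.2% and 26.7% of all tested genes.

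**Figure D1:**
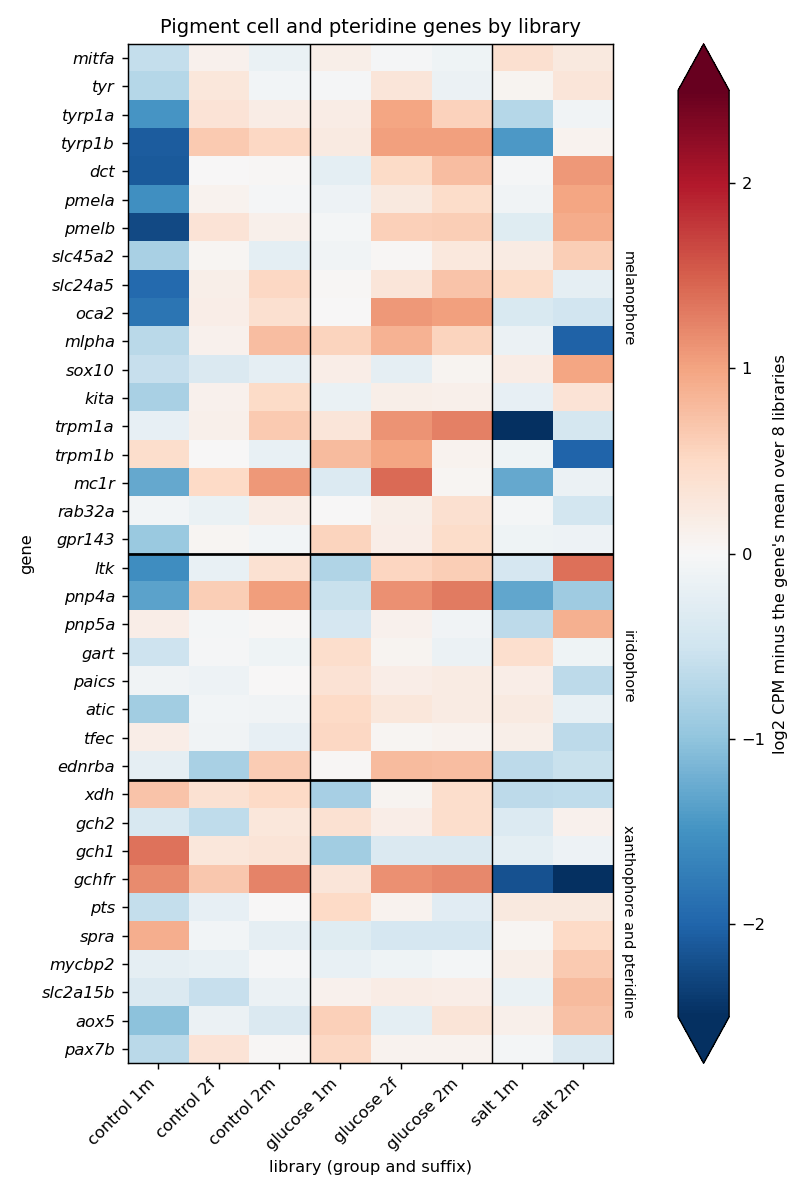
Each row is 1 of the 36 genes and each column 1 of the 8 libraries, named by group and suffix; colour gives the log2 CPM minus the gene's mean over all 8 libraries, with arrows where the scale ends. Control 1m is the bluest column for most melanophore genes, and gchfr is dark blue in both salt libraries.

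Levels of different genes are compared here only as CPM per kilobase of the gene length given in the table, as means over the 8 libraries. Among melanophore genes, the highest were dct (17.1 CPM per kilobase), tyrp1b (14.9) and pmela (14.2), which encode dopachrome tautomerase, a tyrosinase-related protein and the protein of the melanosome's fibrils. The tyrosinase gene tyr was at 3.44 and mitfa, the transcription factor gene that sets melanophore fate, at 3.88 CPM per kilobase. The lowest were mlpha (0.224), which encodes an adaptor for melanosome transport, trpm1a (0.194), which encodes a cation channel, and mc1r (0.186). Among iridophore genes the purine synthesis genes paics (102 CPM per kilobase), gart (41.0) and atic (35.7) were highest and ltk, which encodes the receptor tyrosine kinase that iridophores require, was lowest (1.29). These 3 purine synthesis genes are expressed in every dividing cell, so their levels are not those of iridophores alone. Among pteridine genes gch2, the GTP cyclohydrolase gene of xanthophores, was at 53.3 CPM per kilobase, gch1, its relative outside the pigment cells, at 5.17, and gchfr, which encodes the feedback regulator of GTP cyclohydrolase, at 2.81. Genes listed for all 3 kinds of pigment cell were thus detected, some of them shared with other cells. Not every gene had reads in every library, as mc1r, mlpha, trpm1a and gchfr each had 0 counts in at least 1.

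Several melanophore and iridophore genes differed between libraries of the same group, by suffix. In a model that also held the group, 7 of the 35 genes were higher in the suffix 2f and 2m libraries than in the 1m libraries and 0 were lower. The test was the edgeR quasi-likelihood test, with p-values adjusted after Benjamini and Hochberg across the 20562 genes tested. Of all tested genes, 8.23% differed in this comparison, 5.3% higher and 2.94% lower. The 7 were 5 melanin genes (tyrp1a, tyrp1b, dct, pmela and pmelb) and 2 iridophore genes, ltk and pnp4a, the latter encoding a purine nucleoside phosphorylase. The median log2 difference was 0.65 over the melanophore genes (16 of 17 above 0), 0.24 over the iridophore genes (5 of 8) and 0.17 over the xanthophore and pteridine genes (7 of 10). The median over all tested genes was -0.01.

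The dopachrome tautomerase gene dct (chromosome 9, 53788137 to 53813085) was at 6.37, 28.0 and 28.4 CPM in control 1m, 2f and 2m, at 23.5, 38.6 and 47.3 CPM in glucose 1m, 2f and 2m, and at 27.2 and 58.8 CPM in the 1m and 2m libraries of salt. Within each group the 1m library was the lowest, and the glucose and salt ranges each overlapped that of control. The suffix difference of dct was 1.34 ± 0.23 (log2 ± SE, adjusted p = 0.0083 by edgeR). The gene tyrp1b (chromosome 1, 18639900 to 18653111) was at 5.46, 37.0 and 33.9 CPM in control, 27.6, 48.3 and 48.0 CPM in glucose, and 8.69 and 25.1 CPM in salt, in the same order. Again each 1m library was lowest, and control 1m and salt 1m stood far below glucose 1m. The suffix difference was 1.58 ± 0.30 (adjusted p = 0.012). Its relative tyrp1a was at 2.80, 10.1 and 9.07 CPM in control, 9.07, 16.0 and 12.0 CPM in glucose, and 4.82 and 7.55 CPM in salt, with a difference of 0.996 ± 0.26 (adjusted p = 0.043) that kept its call in 5 of 15 alternative analyses and lost it when any 1 of the 8 libraries was left out.

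The fibril protein gene pmela (chromosome 11, 3186364 to 3203860) was at 13.9, 43.4 and 40.0 CPM in control, 37.2, 48.0 and 56.4 CPM in glucose, and 38.4 and 81.4 CPM in salt. Its copy pmelb was at 3.19, 19.8 and 17.2 CPM in control, 15.2, 23.6 and 24.1 CPM in glucose, and 12.6 and 29.7 CPM in salt. In both genes control 1m was the lowest library of all and salt 2m the highest. The suffix differences were 1.02 ± 0.20 for pmela (adjusted p = 0.015) and 1.37 ± 0.30 for pmelb (adjusted p = 0.021) by edgeR. In contrast tyr was at 3.97, 7.99 and 6.28 CPM in control, 6.45, 8.09 and 5.89 CPM in glucose, and 6.86 and 8.07 CPM in salt. Glucose 1m stood above glucose 2m, and the suffix difference of tyr, 0.40, did not pass.

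Among iridophore genes, ltk (chromosome 17, 31383621 to 31466506) was at 1.69, 4.58 and 6.86 CPM in control, 3.02, 7.58 and 8.02 CPM in glucose, and 3.87 and 13.8 CPM in salt. The 1m library was the lowest in each group, and the suffix difference was 1.63 ± 0.25 (adjusted p = 0.0051 by edgeR). The gene pnp4a (chromosome 11, 24052514 to 24060085) was at 2.86, 11.3 and 15.5 CPM in control, 4.97, 16.5 and 18.5 CPM in glucose, and 2.92 and 3.92 CPM in salt. The suffix separated the control and glucose libraries by 2.16 and 1.79 on the log2 scale but the salt libraries by 0.41, and over all groups the difference was 1.61 ± 0.32 (adjusted p = 0.014). No test of whether the suffix difference itself varied between groups was made.

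Part of the suffix difference came with control 1m. Within control, suffix 2 libraries exceeded 1m by 2.67 (log2) for tyrp1b, 2.12 for dct and 1.57 for pmela, within glucose by 0.80, 0.86 and 0.48, and within salt by 1.51, 1.11 and 1.08. Without control 1m, 4 of the 7 genes remained called: tyrp1b (1.08), dct (0.97), pmelb (0.89) and ltk (1.56). Without control 1m adjusted p was 0.051 for pmela, 0.065 for pnp4a and 0.18 for tyrp1a by edgeR. The call was also lost for pnp4a without glucose 1m (adjusted p = 0.065) and for pmelb without salt 1m (0.052) or salt 2m (0.054). In an analysis added after the data were seen, which left out control 1m together with salt 2m, pnp4a alone of the 35 passed. Suffix 2 stood above 1m in all 3 groups for 9 of 17 melanophore genes (52.9%), 3 of 8 iridophore genes (37.5%) and 2 of 10 xanthophore and pteridine genes (20%), against 21.9% of all tested genes. What the suffix stands for is not stated, and its part in the differences between groups below is given through within-suffix values.

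**Figure D2:**
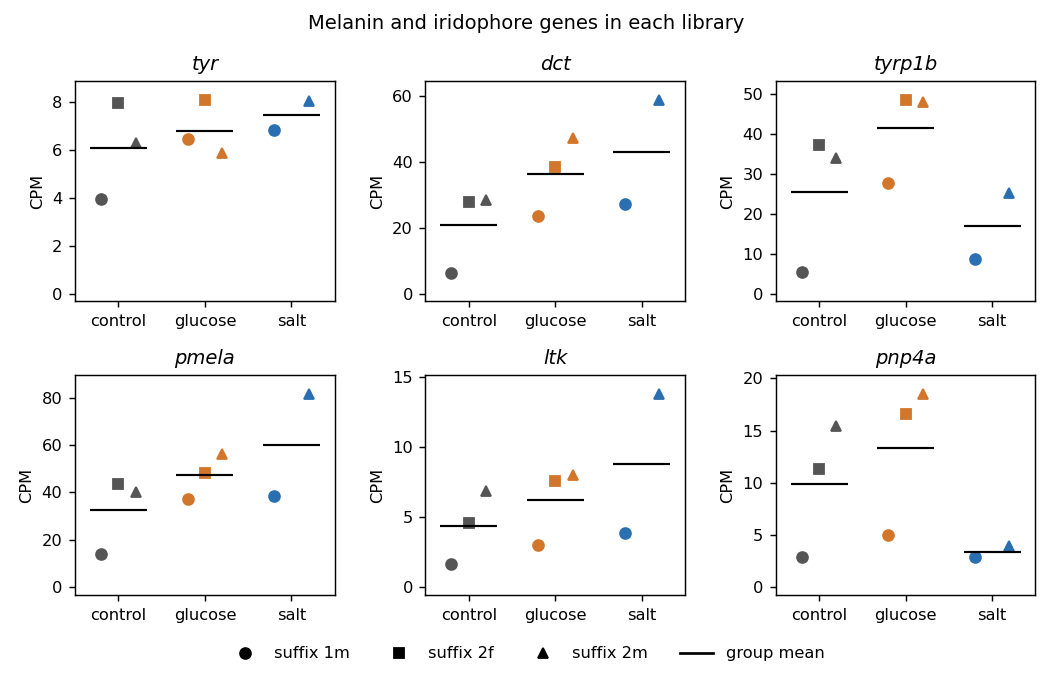
Levels (CPM, linear axis from 0) of 6 melanophore and iridophore genes in each of the 8 libraries, by group, with circles for suffix 1m, squares for 2f and triangles for 2m, and a line at each group's mean. The 1m circle is the lowest point of its group for dct, tyrp1b, pmela, ltk and pnp4a, and the salt libraries of pnp4a (2.92 and 3.92 CPM) lie close together at the level of control 1m (2.86 CPM).

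In high glucose the fold changes of the melanophore genes shared 1 sign, but no single gene passed. All 17 had a log2 fold change above 0, with a median of 0.56 and a range from 0.02 (kita) to 0.95 (oca2). The genes were measured in the same libraries and are not independent, so 1 low control library can move them all together. The iridophore genes had a median of 0.39 (7 of 8 above 0) and the xanthophore and pteridine genes one of 0.16 (6 of 10), where the median of all tested genes was -0.00 and 49.98% of them stood above 0. By the edgeR quasi-likelihood test with adjustment over all tested genes, 0 of the 35 were called, as was 0% of all tested genes. An unadjusted p below 0.05 was reached by 4 of the 35 (11.4%), against 5.97% of all tested genes. DESeq2 called 1 of the 35, gch1 (lower), and of the 20562 tested genes it called 93 lower and 0 higher. By limma voom 0 of the 35 and 0 of all tested genes were called.

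The level of control 1m moved with this pattern. The median glucose-minus-control difference over the melanophore genes was 1.23 between the 1m libraries (17 of 17 above 0), 0.26 between the 2f libraries (15 of 17) and 0.39 between the 2m libraries (14 of 17). For the iridophore genes the values were 0.61, 0.32 and 0.21, with 7, 8 and 6 of 8 above 0. Without control 1m the melanophore median was 0.22 (15 of 17 above 0), the iridophore median 0.26 (6 of 8) and the xanthophore and pteridine median 0.02 (5 of 10). The summed level of the melanophore genes was 100.7, 232 and 224 CPM in control 1m, 2f and 2m and 222, 288 and 298 CPM in glucose 1m, 2f and 2m, so that glucose 1m lay inside the control range. Marker lists of other cells also stood above 0 in glucose, with medians of 0.55 for glia and Schwann cells (5 of 7 above 0, 4 with an unadjusted p below 0.05), 0.43 for proliferating cells (10 of 11 above 0) and 0.41 for hepatocytes (5 of 6). For the retinal pigment epithelium, which shares melanin genes with melanophores, the median was 0.28 (5 of 8 above 0). No marker in these lists was called in glucose by edgeR. Like the melanophore genes (median deviation from each gene's mean over the libraries, -0.81 on the log2 scale), the markers of glia (-0.80) and of proliferating cells (-0.76) were low in control 1m. For hepatocyte markers the median deviation was -0.36 in control 1m and -0.30 in salt 1m. Their summed level in control 1m (3847 CPM), however, lay above the other controls (3009 and 3544 CPM). The part of these cell types in the melanophore values was not tested.

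No gene of pigment cell fate passed the test in glucose. Levels of mitfa were 5.72, 9.40 and 7.68 CPM in control and 9.65, 8.53 and 8.02 CPM in glucose, a log2 fold change of 0.20 ± 0.25 (adjusted p = 0.85 by edgeR). The glucose libraries lay within or just above the control range. For sox10, a transcription factor gene of the neural crest that all 3 pigment cell types and glia need, the fold change was 0.39 ± 0.24, and for kita, the receptor gene that melanophores need to migrate and survive, 0.02 ± 0.33. The fold change of the iridophore factor gene tfec was 0.28 ± 0.28 and that of pax7b, a transcription factor gene of the xanthophore lineage, 0.28 ± 0.27 (log2 ± SE).

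No melanin synthesis gene passed the test in glucose. The log2 fold change was 0.80 ± 0.52 for dct, 0.75 ± 0.44 for tyrp1a, 0.70 ± 0.61 for tyrp1b, 0.54 ± 0.41 for pmela and 0.16 ± 0.31 for tyr, with adjusted p from 0.76 to 0.90 by edgeR. The oca2 gene, which encodes a melanosomal transporter lost in a form of albinism, was at 0.715, 3.23 and 3.84 CPM in control and 2.91, 6.27 and 5.95 CPM in glucose (0.95 ± 0.55). Its glucose range overlapped that of control through glucose 1m. The 1 melanophore gene whose groups did not overlap was gpr143, a receptor gene of melanosome number and size, at 2.34, 4.70 and 4.36 CPM in control and 6.79, 5.14 and 6.33 CPM in glucose (0.68 ± 0.33, adjusted p = 0.76). The other melanophore genes lay between 0.20 ± 0.24 (rab32a, a small GTPase gene of enzyme delivery to melanosomes) and 0.77 ± 0.74 (trpm1a). Groups did not overlap upward for 1 of 17 melanophore, 2 of 8 iridophore and 1 of 10 xanthophore and pteridine genes (slc2a15b, 0.51 ± 0.28), against 7.13% of all tested genes, and downward for 0, 0 and 2, against 7.67%.

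The iridophore genes with separate groups in glucose were 2 purine synthesis genes. The enzyme of the last steps to inosine monophosphate is encoded by atic, which was at 62.3, 108 and 107 CPM in control and 161, 138 and 130.1 CPM in glucose (0.63 ± 0.23, adjusted p = 0.76 by edgeR). All 3 glucose libraries stood above all 3 controls, and the difference was 1.37 between the 1m libraries, 0.35 between 2f and 0.28 between 2m. The other was paics, at 384, 376 and 413 CPM in control and 527, 459 and 472 CPM in glucose (0.32 ± 0.21). Markers of proliferating cells, which share these genes, had a median of 0.43 in glucose (10 of 11 above 0, none called), with summed levels of 2108, 3207 and 2680 CPM in control and 4017, 3352 and 2749 CPM in glucose. Their part in the purine gene values was not tested.

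The pteridine genes went different ways in glucose. The tetrahydrobiopterin route's GTP cyclohydrolase gene gch1 (chromosome 17, 15114044 to 15141342) was at 64.0, 30.6 and 31.4 CPM in control and 13.8, 19.4 and 19.6 CPM in glucose. All glucose libraries lay below all controls, and control 1m was the highest library. The log2 fold change was -1.26 ± 0.30 (adjusted p = 0.64 by edgeR), and DESeq2 gave -1.26 (adjusted p = 0.035). Between libraries of the same suffix it was -2.21 (1m), -0.66 (2f) and -0.67 (2m), and without control 1m it was -0.82 (adjusted p = 0.92). The xanthophore enzyme gene gch2 stood the other way, at 75.2, 63.8 and 121 CPM in control and 129.7, 112 and 135 CPM in glucose (0.53 ± 0.25, adjusted p = 0.76). Control 2m lay inside the glucose range.

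Of the enzymes downstream, spra, the sepiapterin reductase gene of the last step to tetrahydrobiopterin, was at 33.1, 16.7 and 15.1 CPM in control and 14.2, 13.0 and 13.0 CPM in glucose (-0.69 ± 0.30, adjusted p = 0.76 by edgeR). The groups did not overlap, with within-suffix differences of -1.22, -0.36 and -0.21 in 1m, 2f and 2m. The gene pts, which encodes 6-pyruvoyltetrahydropterin synthase between these steps, was at 8.06, 10.6 and 12.4 CPM in control and 17.6, 13.0 and 10.1 CPM in glucose (0.39 ± 0.26). Its groups overlapped. For xdh, the xanthine dehydrogenase gene, levels were 36.0, 28.5 and 31.1 CPM in control and 12.3, 23.0 and 29.7 CPM in glucose (-0.56 ± 0.29, adjusted p = 0.76), with glucose 2m inside the control range. The aldehyde oxidase gene aox5, a xanthophore marker, was at 10.2, 18.9 and 16.2 CPM in control and 31.7, 17.7 and 26.3 CPM in glucose (0.74 ± 0.30, adjusted p = 0.76). The regulator gene gchfr did not differ beyond its error (-0.12 ± 0.50).

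**Figure D3:**
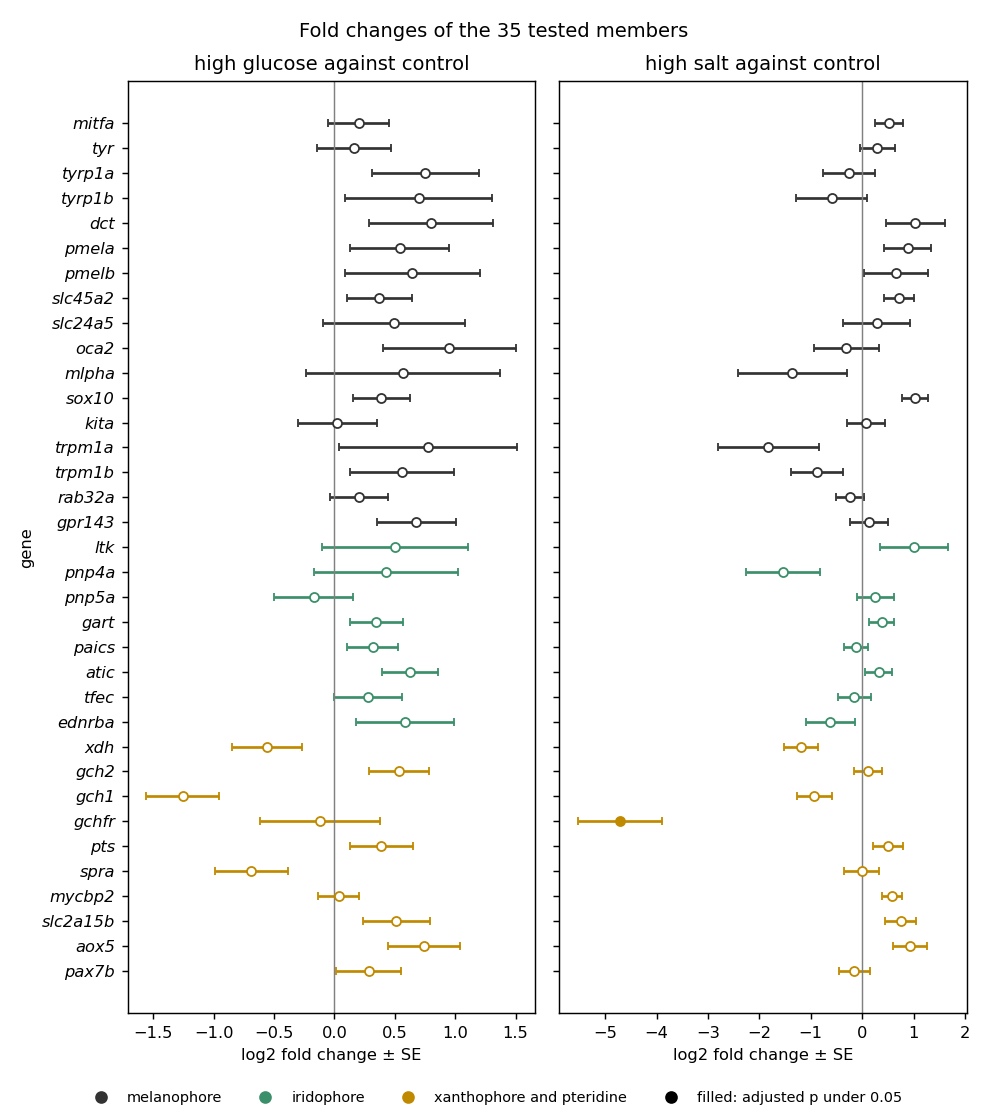
Log2 fold changes (points) with their standard errors (bars) for the 35 tested genes, glucose against control on the left and salt against control on the right, on different horizontal scales; colours give the gene class and a filled point an adjusted p under 0.05. All 17 melanophore points lie right of 0 in glucose, and gchfr at -4.71 in salt is the 1 filled point.

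High salt was compared with the same 3 controls, so the glucose and salt comparisons are not independent of each other. Of the 35 genes, 1 fell in salt, gchfr, and 0 rose by the adjusted edgeR test, where 5.35% of all tested genes changed, 2.41% downward and 2.94% upward. An unadjusted p below 0.05 was reached by 8 of the 35 (22.9%), against 25.9% of all tested genes. In the fit blocked by suffix, 4 of the 35 rose (dct, pmela, sox10 and ltk) and 2 fell (xdh and gchfr). The blocked fit also called more genes in all, 1216 of the 20562 tested higher and 1334 lower. Without the block, the median fold change was 0.14 over the melanophore genes (10 of 17 above 0), 0.07 over the iridophore genes (4 of 8) and 0.05 over the xanthophore and pteridine genes (5 of 10), with -0.04 over all tested genes. Scaling by library totals alone moved the median of all tested genes by -0.10 and put the iridophore and the xanthophore and pteridine medians at -0.04 and -0.05, a shift shared with other genes. Without control 1m the melanophore median was -0.18 (7 of 17 above 0), and without salt 2m it was -0.06 (8 of 18, mc1r then being tested).

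The regulator gene gchfr (chromosome 17, 860033 to 865234) encodes a small protein that, in mammals, binds GTP cyclohydrolase and lets tetrahydrobiopterin inhibit it and phenylalanine stimulate it. It had 50, 37 and 59 counts in control, 30, 51 and 53 counts in glucose, and 3 and 0 counts in salt. As levels these were 3.25, 2.26 and 3.43 CPM in control, 1.71, 3.197 and 3.32 CPM in glucose, and 0.204 and 0 CPM in salt. Both salt libraries lay at or under the level of 3 counts and far below each of the other 6, and within each suffix salt was below control. The scaled ratio of control to salt was 27.8, with an exact 95% binomial interval from 9.33 to 136 that covers counting error only.

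By edgeR the log2 fold change of gchfr in salt was -4.71 ± 0.82 (adjusted p = 0.020), and the gene stood 4.59 ± 0.82 higher in glucose than in salt (adjusted p = 0.020). These fitted values depend on how a count of 0 is treated, and ran from -8.57 to -3.74 across 17 alternative analyses of salt against control, of which 10 kept the call. Adjusted p for gchfr was 0.051, 0.061, 0.0503 and 0.12 when control 2f, control 2m, glucose 2f or salt 2m in turn was left out, 0.097 with control and salt fitted alone, 0.051 by limma voom and 0.060 with control 1m and salt 2m both left out. Against glucose adjusted p was 0.090, 0.082 and 0.13 when glucose 2f, glucose 2m or salt 2m was left out, and 0.060 by limma voom. The gchfr fold change in the fits that lost the call lay between -4.93 and -3.74, and fewer genes in all were called lower in salt in those fits (15 to 265, against 496). The highest gchfr level over all libraries was 3.43 CPM, so its values rest on few reads.

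No enzyme gene of the route from GTP was called in salt. The cyclohydrolase gene gch1 was at 21.1 and 22.9 CPM in salt, below all 3 controls (30.6 to 64.0 CPM), with a fold change of -0.93 ± 0.34 (adjusted p = 0.13 by edgeR). The xanthophore gene gch2 was at 78.9 and 108 CPM, inside the control range (0.11 ± 0.28, adjusted p = 0.84). Levels of pts were 14.6 and 14.7 CPM, above all controls (0.50 ± 0.29, adjusted p = 0.31), and those of spra 18.1 and 24.9 CPM, inside their range (-0.01 ± 0.34). So 1 of these 4 enzyme genes stood below the controls, 1 above and 2 among them, none of them past the test. Of all tested genes, 20.6% lay below all controls in salt and 18.8% above.

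Among the oxidases, xdh was at 13.8 and 14.1 CPM in salt against 36.0, 28.5 and 31.1 CPM in control. Both salt libraries lay below every control, and the within-suffix differences were -1.38 (1m) and -1.13 (2m). The fold change of xdh was -1.19 ± 0.34 (adjusted p = 0.067 by edgeR), and in the fit blocked by suffix it was -1.21 ± 0.32 (adjusted p = 0.038). It passed for xdh also by DESeq2 (-1.17, adjusted p = 0.014) and without glucose 1m (-1.19, adjusted p = 0.043). Hepatocytes share xdh, and their part in its value was not tested. The related gene aox5 was at 22.9 and 34.9 CPM, above every control (0.94 ± 0.33, adjusted p = 0.12). Of the other genes listed for xanthophores, mycbp2 encodes a ubiquitin ligase whose loss leaves zebrafish xanthophores pale. Which cells its reads came from was not tested. Levels of mycbp2 were 124, 127 and 142 CPM in control and 161 and 228 CPM in salt (0.58 ± 0.19, adjusted p = 0.10 by edgeR). The mycbp2 gene passed by DESeq2 (0.60, adjusted p = 0.045). By edgeR without salt 1m, and so from salt 2m alone, its fold change was 0.83. The sugar transporter family gene slc2a15b, needed for pteridine-coloured cells in medaka, was at 8.39, 7.26 and 9.83 CPM in control and 9.64 and 18.9 CPM in salt (0.75 ± 0.30, adjusted p = 0.16 by edgeR). From salt 2m alone, without salt 1m, the slc2a15b fold change was 1.17. Its groups overlapped through salt 1m, and salt 2m was the highest library for both genes.

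**Figure D4:**
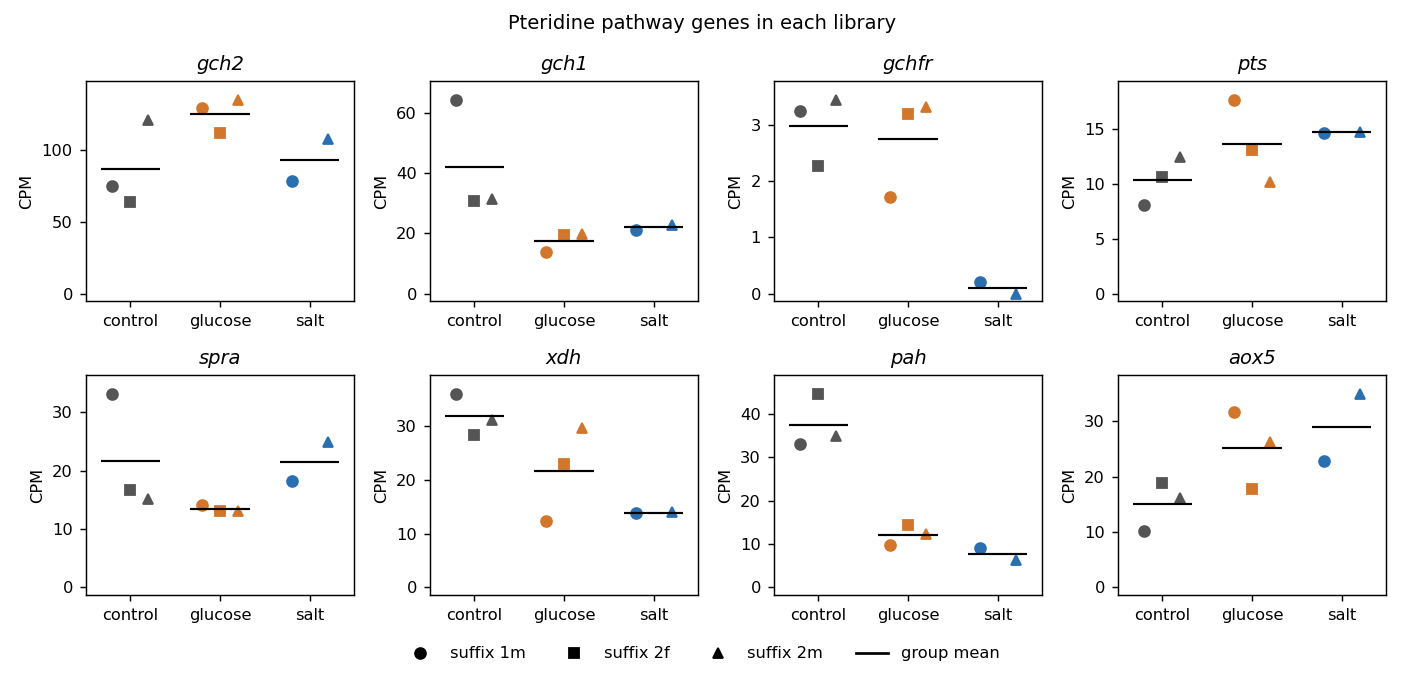
Levels (CPM, linear axis from 0) of 8 genes of pteridine and tetrahydrobiopterin metabolism in each library, by group, with circles for suffix 1m, squares for 2f and triangles for 2m, and a line at each group's mean. The salt points lie at 0.204 and 0 CPM for gchfr and at 13.8 and 14.1 CPM for xdh, and both treated groups lie below the controls for gch1 and pah.

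Melanophore genes in salt lay on both sides of the control range. None passed by edgeR over all 8 libraries with TMM scaling, the count filter and no block. The fate gene mitfa was at 11.5 and 10.3 CPM, above all controls (0.52 ± 0.28, adjusted p = 0.27 by edgeR). The neural crest gene sox10 was at 18.9, 22.2 and 24.2 CPM in control and 32.3 and 56.4 CPM in salt, with the groups apart and salt 2m highest. The fold change of sox10 was 1.03 ± 0.26 (adjusted p = 0.051), and in the fit blocked by suffix 0.95 ± 0.25 (adjusted p = 0.034). It also passed for sox10 with DESeq2 size factors (adjusted p = 0.047), by the DESeq2 test (0.0073) and with no count filter (0.042). The sox10 gene did not pass by limma voom, by library totals alone, with a higher minimum count or with only the groups compared. Nor did it pass when any single control or glucose library was left out. From salt 2m alone, without salt 1m, the sox10 fold change was 1.39. Glia also make sox10. The 8 glial and Schwann cell markers, of which 1 had no count in any library, summed to 259, 425 and 413 CPM in control, 528, 565 and 613 CPM in glucose and 467 and 422 CPM in salt, and their part in the sox10 value was not tested.

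The melanosome genes dct and pmela and the receptor gene ltk rose in salt in the fit blocked by suffix, by 1.36 ± 0.30 (adjusted p = 0.022 by edgeR), 1.08 ± 0.27 (0.031) and 1.12 ± 0.30 (0.040). Without the block their fold changes were 1.04 ± 0.56 (adjusted p = 0.28), 0.88 ± 0.45 (0.25) and 1.01 ± 0.66 (0.37). Within suffixes, salt exceeded control by 2.07 (1m) and 1.05 (2m) for dct, 1.46 and 1.02 for pmela, and 1.14 and 0.995 for ltk. Glucose 1m also exceeded control 1m, by 1.86 for dct, 1.41 for pmela and 0.79 for ltk. Salt and control levels overlapped for each of these genes. Control 1m was the lowest library and salt 2m the highest, so the blocked values lean on the libraries that stood apart. None of the other tyrosinase family genes passed in either fit. The fold change was -0.60 ± 0.69 for tyrp1b (adjusted p = 0.63), -0.25 ± 0.50 for tyrp1a and 0.29 ± 0.34 for tyr. Without control 1m and salt 2m, a choice made after the data were seen, the tyrp1b fold change was -2.01. That fit sets salt 1m alone against control 2f and 2m, so salt and suffix cannot be told apart in it. Within suffixes, the salt-minus-control difference of tyrp1b was 0.66 in 1m and -0.43 in 2m.

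Of the remaining melanophore genes, the transporter gene slc45a2, whose loss gives the albino zebrafish, was at 6.37, 11.7 and 9.54 CPM in control and 13.0 and 17.3 CPM in salt (0.71 ± 0.30, adjusted p = 0.17 by edgeR). Both salt libraries stood above all controls. The channel gene trpm1b was at 15.6, 11.5 and 10.1 CPM in control, 19.98, 22.8 and 12.2 CPM in glucose, and 10.7 and 2.79 CPM in salt, with the lowest level in salt 2m. Its fold change in salt was -0.88 ± 0.50 (adjusted p = 0.30 by edgeR) and, without salt 1m and so from salt 2m alone, -2.13. For trpm1b glucose exceeded salt by 1.44 ± 0.51 (adjusted p = 0.12) or, in the fit blocked by suffix, by 1.53 ± 0.35 (adjusted p = 0.029). The DESeq2 test gave 1.41 for trpm1b (adjusted p = 0.042). Its relative trpm1a had 10, 14 and 22 counts in control, 17, 29 and 32 in glucose, and 0 and 7 in salt, too few for a firm value (-1.83 ± 0.99). In iridophores pnp4a lay at 2.92 and 3.92 CPM in salt, within the control range through control 1m (-1.53 ± 0.72, adjusted p = 0.21). The endothelin receptor gene ednrba was at 3.64, 2.38 and 6.69 CPM in control and 2.65 and 2.87 CPM in salt (-0.62 ± 0.47). In salt the purine synthesis genes gart (0.38 ± 0.25), atic (0.32 ± 0.26) and paics (-0.12 ± 0.24) did not pass. Neither did the factor genes tfec (-0.16 ± 0.32) and pax7b (-0.15 ± 0.30), nor the melanophore genes pmelb (0.66 ± 0.62), kita (0.08 ± 0.37), rab32a (-0.24 ± 0.28) and gpr143 (0.14 ± 0.37).

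Salt groups did not overlap with control upward for 3 of 17 melanophore genes (mitfa, slc45a2 and sox10), 0 of 8 iridophore genes and 3 of 10 xanthophore and pteridine genes (pts, mycbp2 and aox5), against 18.8% of all tested genes. They did not overlap downward for trpm1a, for none of the iridophore genes and for xdh, gch1 and gchfr, against 20.6%. With 2 salt libraries such separation is common, as these background shares show.

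High glucose and high salt were also compared directly. Here gchfr was the 1 gene of 35 that was higher in glucose and 0 were lower by edgeR, where 4.95% of all tested genes differed, 1.9% higher and 3.05% lower. An unadjusted p below 0.05 was reached by 7 of the 35 (20%), against 24.5% of all tested genes. The median log2 difference, glucose over salt, was 0.21 over the melanophore genes, 0.37 over the iridophore genes and -0.15 over the xanthophore and pteridine genes, with 0.04 over all tested genes. For pnp4a glucose exceeded salt by 1.96 ± 0.73 (adjusted p = 0.14), and the DESeq2 test gave 1.93 (adjusted p = 0.032). By edgeR without control 1m the pnp4a difference was 1.96 (adjusted p = 0.044). For tyrp1b glucose exceeded salt by 1.29 ± 0.71 (adjusted p = 0.29), and sox10 stood 0.64 ± 0.26 lower in glucose than in salt on the log2 scale (adjusted p = 0.17). Groups did not overlap for 8 of 17 melanophore genes upward and 2 downward, against 23.6% and 21.2% of all tested genes. For the iridophore genes this held for 3 of 8 upward and 0 downward. For the xanthophore and pteridine genes it held for 3 of 10 upward and 3 downward.

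Ratios of pairs of genes within a library do not depend on its scaling. The pairs were chosen after the values were seen, so no test is given. The ratio of dct to tyrp1b, each as CPM per kilobase, was 1.21, 0.787 and 0.873 in control 1m, 2f and 2m, 0.884, 0.832 and 1.03 in glucose, and 3.25 and 2.44 in salt 1m and 2m. The ratio of pmelb to tyrp1b was 0.523, 0.479 and 0.454 in control, 0.493, 0.438 and 0.449 in glucose, and 1.296 and 1.06 in salt. In both, the 6 control and glucose libraries lay close together whatever their suffix, and the 2 salt libraries lay apart and above. The ratio of pmela to tyrp1b was 1.59, 0.730 and 0.736 in control, 0.839, 0.618 and 0.731 in glucose and 2.75 and 2.02 in salt, with control 1m between. The ratio of tyrp1a to tyrp1b was 0.449, 0.240 and 0.235 in control, 0.288, 0.291 and 0.218 in glucose and 0.486 and 0.264 in salt, and the groups overlapped. The ratio of dct to pmela did not separate salt, at 0.766 to 1.19 in control, 1.05 to 1.403 in glucose and 1.18 and 1.21 in salt. Between the 2 iridophore genes, ltk to pnp4a was 0.219, 0.149 and 0.164 in control, 0.225, 0.170 and 0.161 in glucose, and 0.491 and 1.302 in salt. The cyclohydrolase pair gch1 to gch2 was 0.306, 0.172 and 0.0926 in control, 0.0380, 0.0620 and 0.0521 in glucose, and 0.0960 and 0.0759 in salt, with all glucose libraries below the others.

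**Figure D5:**
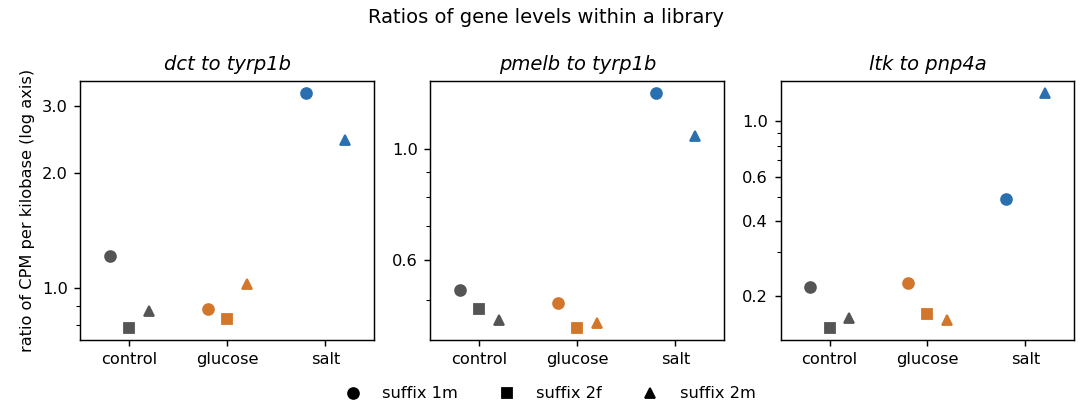
Ratios of CPM per kilobase within each library for 3 pairs of genes, on log axes, by group, with circles for suffix 1m, squares for 2f and triangles for 2m. The dct to tyrp1b ratio is 3.25 and 2.44 in salt and at most 1.21 in the other 6 libraries, and the ltk to pnp4a ratio is 0.491 and 1.302 in salt and at most 0.225 elsewhere.

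Wider lists of the same pathways gave few further calls between groups, and whether these calls hold under the alternative analyses was not examined. Of 30 tested melanosome and melanophore genes, 2 fell and 0 rose in salt, where 2.41% of all tested genes fell and 2.94% rose. The fallers were dtnbp1a, which encodes the dysbindin subunit of a complex that sorts cargo to melanosomes, and vps39, which encodes a subunit of a tethering complex of endosomes and lysosomes. Levels of dtnbp1a were 26.7, 26.7 and 30.9 CPM in control, 19.6, 27.6 and 23.5 CPM in glucose, and 12.3 and 12.4 CPM in salt (-1.19 ± 0.22 in salt, adjusted p = 0.023 by edgeR). Those of vps39 were 42.4, 41.1 and 42.1 CPM in control, 33.4, 33.8 and 32.6 CPM in glucose, and 26.0 and 25.7 CPM in salt (-0.70 ± 0.17, adjusted p = 0.047). In both the salt libraries lay below the other 6 with little spread. Against salt, glucose was higher for dtnbp1a (0.93, adjusted p = 0.045) and lower for atp7a (-0.90, adjusted p = 0.039), the gene of a copper pump that supplies tyrosinase. The list's median was -0.21 in salt (10 of 30 above 0).

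Of 24 tested purine synthesis and iridophore genes, 1 fell and 0 rose in salt, against the same 2.41% and 2.94%. This was ppat, which encodes the first committed enzyme of purine synthesis, at 61.4, 69.8 and 69.5 CPM in control, 68.3, 72.2 and 66.0 CPM in glucose, and 40.5 and 27.4 CPM in salt. Control and glucose overlapped and salt lay below both, by -0.98 ± 0.21 from control (adjusted p = 0.032 by edgeR) and by 1.02 from glucose (adjusted p = 0.028). The list's median was 0.07 in salt (13 of 24 above 0).

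Of 28 tested genes of pteridine and tetrahydrobiopterin metabolism and of xanthophores, 1 fell and 0 rose in salt, again against 2.41% and 2.94%. It was pah (chromosome 4, 17402704 to 17420557), the gene of phenylalanine hydroxylase, which uses tetrahydrobiopterin, at 33.03, 44.5 and 34.9 CPM in control, 9.82, 14.5 and 12.2 CPM in glucose, and 9.17 and 6.41 CPM in salt. All 5 treated libraries lay below all 3 controls. The salt fold change of pah was -2.26 ± 0.28 (adjusted p = 0.0061 by edgeR) and the glucose fold change -1.62 ± 0.24 (adjusted p = 0.12). Hepatocytes express pah as well. The 7 hepatocyte markers summed to 3847, 3009 and 3544 CPM in control, 3567, 3658 and 3653 CPM in glucose, and 3264 and 4398 CPM in salt, with none called in either group comparison, and the groups overlapped. Glucose was lower than salt for csf1a (-1.23, adjusted p = 0.049), the gene of a ligand that xanthophores respond to, and for scarb1 (-1.82, adjusted p = 0.037), which encodes a receptor for carotenoid uptake. Levels of scarb1 were 25.1 and 82.8 CPM in the salt libraries against 12.3 to 17.7 CPM in glucose.

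None of these wider lists had a call in glucose against control. Unadjusted p was lowest for hps4 (-0.55 ± 0.23) and vps39 (-0.33 ± 0.15) in the melanosome list and for impdh1b (0.48 ± 0.18) and mpv17 (-1.39 ± 0.58) in the purine list. In the pteridine list it was lowest for pah and th2 (-3.23 ± 1.03). Apart from pah, each of these had an adjusted p = 0.76 by edgeR. An unadjusted p below 0.05 was reached by 1 of 30, 2 of 24 and 2 of 28 tested genes of the 3 lists, against 5.97% of all tested genes, and the medians were -0.09, 0.07 and 0.05. The gene th2, which encodes a tyrosine hydroxylase, was at 1.04 CPM or less in every control and 0.125 CPM or less in every glucose library, so its fold change is uncertain.

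The suffix also separated genes of the wider lists, with 5.3% of all tested genes higher in suffix 2 and 2.94% lower. Of 30 melanosome and melanophore genes 3 were higher and 1 lower, and of 24 purine and iridophore genes 3 and 4. Of 28 pteridine and xanthophore genes 3 were higher and 1 lower. Higher in suffix 2 than in 1m were gpnmb (2.98 ± 0.40, adjusted p = 0.0033 by edgeR), a melanosomal glycoprotein gene, tfap2e (1.37) and the melanosome motor gene myo5aa (0.87), and lower was bloc1s3 (-1.19). Levels of gpnmb were 0.520, 13.5 and 18.3 CPM in control, 4.79, 27.6 and 31.3 CPM in glucose, and 2.58 and 10.8 CPM in salt, with each 1m library lowest. Among purine and iridophore genes the adenosine deaminase gene ada (2.94 ± 0.33, adjusted p = 0.0019), adss1 (1.29) and the iridophore factor gene alx4a (0.74) were higher. The genes prps1b (-0.57), aprt (-0.58), shmt1 (-0.59) and mpv17 (-1.40), the last needed for zebrafish iridophores, were lower. Among xanthophore and pteridine genes csf1ra, the receptor gene xanthophores require (1.35 ± 0.26, adjusted p = 0.013), slc2a11b (0.73) and gphnb (1.06) were higher and mocs2 (-0.63) was lower. The last 2 genes serve the molybdenum cofactor that xanthine dehydrogenase carries.

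Markers of the retinal pigment epithelium, which shares melanin genes with melanophores, summed to 98.6, 103 and 84.9 CPM in control, 77.5, 94.9 and 94.2 CPM in glucose, and 96.2 and 97.4 CPM in salt over 9 genes. The sum in control 1m was inside the range of the other libraries, whereas those of the melanophore genes, of the glial markers (259 CPM) and of the proliferating cell markers (2108 CPM) were the lowest of the 8. This sum includes rgra, which was highest in control 1m, and otx2a, which was matched by its identifier under the name otx1a. A sum gives most weight to the genes with the highest levels. Over the 8 tested markers the median log2 fold change was 0.28 in glucose (5 above 0) and -0.27 in salt (3 above 0). Of 8 tested, 1 fell in salt (2.41% of all tested genes), the opsin-like gene rgra, at 29.8, 26.5 and 19.5 CPM in control, 5.94, 7.02 and 5.26 CPM in glucose, and 7.88 and 9.81 CPM in salt (-1.52 ± 0.28 in salt, adjusted p = 0.021 by edgeR). The glucose libraries lay lower still, and both comparisons used the same 3 controls. In glucose the rgra fold change was -2.06 and did not pass (lowest adjusted p of the list 0.087 by edgeR). How many melanin gene reads came from the eye and how many from melanophores was not tested.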

How the data were processed

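Libraries of 3 control, 3 high glucose and 2 high salt samples of whole zebrafish embryos were analysed from 1 table of raw counts per gene, which the authors deposited as whole numbers. Per the submitters' processing notes the tools included featureCounts 1.5.0-p3, StringTie 1.3.3b, edgeR 3.22.5, DESeq2 and HISAT2 2.0.5, with build GRCz11. Their order, the use of strand and the handling of reads shared by gene copies are not given in the sources used here, so values of close copies (tyrp1a and tyrp1b, pmela and pmelb, pnp4a and pnp5a) and of genes with antisense partners are uncertain to that extent. The labels' extraction protocol describes arrays, whereas the series type and the values are those of sequencing, and the values were treated as counts. Coordinates are those of the deposited table.

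Counts were scaled by TMM (factors 0.891 to 1.047) and filtered with filterByExpr by group (minimum count 10), leaving 20562 genes. All 8 libraries entered 1 edgeR 4.0.16 quasi-likelihood fit in R 4.3.3 (5 residual degrees of freedom, median biological coefficient of variation 0.28), with Benjamini-Hochberg adjustment over all tested genes and a threshold of 0.05. The suffix comparison had group and suffix (2f and 2m against 1m) as terms. Standard errors are the absolute fold change over the square root of F. Within-suffix values are differences of log2 CPM with a prior count of 2. The code was tested on simulated data with 200 changed genes. Alternatives were other scalings (DESeq2 size factors, library totals alone), no count filter, a minimum count of 30, limma 3.58.1 voom, DESeq2 1.42.0, only the groups compared, the suffix as a block, and leaving out each library.

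Columns carry the suffix and no replicate number. Same-suffix libraries deviated together (r over 0.1 in each of 7 pairs, against -0.444 to 0.186 between different suffixes). The suffix was therefore taken to pair libraries, from the data and the column names, although the 2f pair (0.140) did not exceed the range of different suffixes. Library pairs within a group had a chi-square per degree of freedom of 16.7 to 88.4, far over sampling noise, so none was counted as a duplicate.

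The members and lists were chosen with earlier results of these data known. Named with values in every library were members past the threshold in any comparison of groups and a set list of pathway genes; from the wider lists, every gene past the threshold, or the 2 with the lowest p where none passed; further members were chosen after their values were seen. Of all identifiers, 26121 had a symbol in a reference table, through which aox5 and some genes of the wider and marker lists were matched. Gene sequences were not used here.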

Additional observations from a re-analysis of the deposited data

How the results depend on the processing

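No member's call changed direction under the alternatives run (0 reversed). Members called in salt against control changed as follows. Those higher, 0 in the report, were 1 with DESeq2 size factors, 1 with no count filter, 2 by the DESeq2 test, 4 with the suffix as a replicate block, and 0 to 3 when 1 library was left out. Those lower, 1 in the report, were 2 by DESeq2, 2 with the replicate block, 0 by limma voom, 0 with only the groups compared, and 0 to 2 when 1 library was left out. In glucose against control, 1 member was lower by DESeq2, against 0 by edgeR, with 0 in each fit without 1 library and 0 with the block. In glucose against salt, members higher, 1 in the report, were 4 by DESeq2, 0 by limma voom, 2 with the block, 3 without control 1m and salt 2m, and 0 to 3 without 1 library, and members lower were 0 to 3. For suffix 2 against 1m, members higher, 7 in the report, were 1 without control 1m and salt 2m (an alternative added after the data were seen) and 4 to 6 without 1 library.

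Counts over all genes moved more. Genes called in salt ran from 35 to 1215 higher and from 15 to 1140 lower without 1 library, the lowest being those without salt 2m. With the replicate block they were 1216 and 1334, by DESeq2 1435 and 1399, and with only the groups compared 49 and 23. In glucose against control the block gave 4 higher and 32 lower and DESeq2 93 lower. In glucose against salt DESeq2 called 1180 of all genes higher and 1450 lower, and limma voom 204 and 443, against 390 and 627 in the report. For suffix 2 against 1m, 409 to 945 of all genes were higher without 1 library, against 1089 in the report. Scaling by library totals alone shifted the median of all genes by 0.11 in glucose against salt. Members with under 1 CPM are limited by depth, and intervals cover counting error only. These were mlpha and mc1r in every library and gchfr in salt. They also included trpm1a in salt, control 1m, control 2f and glucose 1m, and slc24a5 and oca2 in control 1m. With 2 salt libraries, the values in salt rest on salt 2m as much as on salt 1m, and these differ. Where leaving out a library left salt with 1, that library was assumed to vary like the other groups.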

Other observations

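Salt 1m and salt 2m differed for several members whose group values are given in the report. Levels of pnp5a, a purine nucleoside phosphorylase gene, were 38.4 CPM in the 1m library of salt and 112 CPM in its 2m library, against 58.5 to 68.1 CPM in control and 45.1 to 65.0 CPM in glucose, so that the salt libraries lay on either side of the other 6. Those of paics were 458 and 259.8 CPM, and those of gart, a purine synthesis gene with 77.1 to 109 CPM in control, were 148 and 102 CPM. The mlpha gene had 5 and 0 counts in the salt libraries and 3 to 13 counts elsewhere.

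The within-suffix salt-minus-control difference was above 0 for 15 of 17 melanophore genes in 1m and 7 of 17 in 2m. Its sign changed between 1m and 2m for, among others, tyrp1b (0.66 and -0.43), oca2 (1.45 and -0.87) and slc24a5 (2.42 and -0.73), which encodes the melanosomal exchanger lost in golden zebrafish. It also changed for pnp5a (-0.83 and 0.86), spra (-0.86 and 0.71) and pax7b (0.64 and -0.39). The 1m values of slc24a5 and oca2 rest on 7 and 11 counts in control 1m. The sign was kept for, among others, dct, pmela, pmelb (1.94 and 0.78), sox10 (0.77 and 1.22), xdh and gchfr (-3.35 and -4.81). These genes were picked after their values were seen, and no test is given.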
